A study of Mus musculus with 31 samples.

Results

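The genes studied here encode the alpha chains of collagens, chosen as all gene names made of Col, a number, the letter a and a second number. They were 44 of the 24062 gene names in the tables from mouse dentate gyrus and 44 of the 24322 names in the tables from cultured cells. By class, 11 encode fibrillar chains, 8 encode chains of basement membrane collagens (Col4a1 to Col4a6, Col15a1 and Col18a1), and 25 encode others, such as the beaded filament chains of collagen VI, the network chains of collagen VIII and the fibril-associated chains of collagen IX. The choice used names only and no measured value.

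Alpha chains wind around each other in a triple helix inside the cell, after hydroxylation of prolines and lysines that needs prolyl and lysyl hydroxylases. Fibrillar collagens are then trimmed by proteases and crosslinked into fibrils by lysyl oxidases, whereas collagen IV chains join into the sheet-like network of basement membranes. In brain, basement membranes lie around blood vessels, where endothelial cells and pericytes make collagen IV, and extensions of them reach the neural stem cell niche. Fibrillar collagens I and III are made mostly by fibroblasts of the meninges and of larger vessels.

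RNA was sequenced from EGFP+ cells that had been isolated by flow sorting of dentate gyrus tissue; the donors were Nestin-EGFP mice on the C57BL/6 background, in which the nestin promoter drives the fluorescent protein in neural stem cells and in cells that come from them. Mice received midazolam (MDZ, a benzodiazepine sedative) at 10 mg/kg or dH2O into the peritoneum on postnatal days 7, 8 and 9. Cells were taken at postnatal day 10 (Control P10 and MDZ P10, each library from 50000 cells of 1 mouse) or at 8 weeks (Control 8w and MDZ 8w, with cells of 3 to 5 mice pooled to about 30000 per library). A further 8-week group made the same way, RUN MDZ 8w, was exposed to midazolam and had a running wheel. No group of unexposed runners is listed, so running is compared among exposed mice only. Cultured neural stem cells came from cortex of ICR wild-type embryos at embryonic day 11 and had been passaged more than 20 times in bFGF and EGF. Both culture groups were infected with virus encoding M2rtTA, a doxycycline-responsive transactivator; Control culture had this lentivirus only. Egr1 culture also received a lentivirus encoding Flag-Egr1, a tagged form of an immediate early zinc finger transcription factor. Each group had 3 libraries. Nothing states that the cultured samples were separate cultures, so their p-values reflect the spread among these samples only, and that spread could be technical.

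Values at P10 were read as FPKM and those at 8 weeks and in culture as TPM, since no label states a unit. Both units are scaled per transcript length and library. The 3 tables were normalized separately, so each comparison stays within a table. Control 8w replicates 2 and 3 shared 97.43% of detected genes, with a Spearman correlation of 0.9919, and differed by less than any other pair at 8 weeks. They were counted as 1 sample (the mean of both), so Control 8w had n = 2. The Control 8w libraries also listed 11163 to 11397 genes above 0, against 15382 to 16709 in MDZ 8w and RUN MDZ 8w. Of 9623 genes with at least 10 TPM in every MDZ 8w and RUN MDZ 8w library, 117 were listed at 0 in every Control 8w library, 1.22%. They include Snf8, a sorting complex subunit used by cells in general. A collagen gene at 0 in those files is therefore described as listed at 0, with no fold. In sorted bulk samples, fewer cells of a type and less RNA per cell cannot be told apart.

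Between 42 and 44 of the 44 collagen genes were above 0 in each P10 library. At 8 weeks the numbers were 21, 19 and 17 in Control 8w replicates 1 to 3, 34 to 41 in MDZ 8w, and between 36 and 41 in RUN MDZ 8w. In culture, 33 to 35 were above 0 in Control culture and 34 to 38 in Egr1 culture. Collagen genes took 0.112% to 0.145% of the summed FPKM at P10 and 0.0269% to 0.0821% of the summed TPM at 8 weeks. Their share in culture was lower still, 0.00918% to 0.0158%. Tests used limma on log2(value + 1) and took genes whose mean over the fitted libraries reached 1, which left 27 collagen genes at P10, 34 at 8 weeks and 15 in culture. The filter reads the level over all groups, so a gene that is low in one group can enter through the other. A gene was called at an adjusted p below 0.05 over all genes in the fit, and log2 changes are differences of mean log2(value + 1), which understate changes of low genes.

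In every setting the abundant transcripts came from few chains, and they differed between sorted cells and culture. The highest collagen gene at P10 was Col9a3, which encodes a chain of the fibril-associated collagen IX, at 78.5, 104 and 74.6 FPKM in Control P10 and 90.1, 88.8 and 81.7 FPKM in MDZ P10. It was followed by Col4a1 and Col4a2, which together build the most widespread collagen IV trimer, and by Col11a2, which encodes a minor fibrillar chain. These were also among the highest at 8 weeks. In culture the highest was instead Col4a5, a chain of other collagen IV trimers, at 31.0 to 36.9 TPM in Control culture. Collagen I and III transcripts, at 3.03 to 13.3 FPKM for Col1a1, Col1a2 and Col3a1 across the P10 libraries, were low in culture, where Col1a2 was listed at 0 in all 6 libraries and the highest values of Col3a1 and Col1a1 were 0.0228 and 1.19 TPM.

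Promoter windows show how closely the leading collagen IV genes sit. RefSeq windows on GRCm38.p6, each from 250 bases before to 50 after a start site, were found for 35 of the 44 genes (38 windows in all). The windows of Col4a1 (chr8:11312777-11313076, minus strand) and Col4a2 (chr8:11312555-11312854, plus strand) overlap by 78 bases. The genes are read in opposite directions from start sites 21 bases apart, each across the start site of the other. The annotated span of Col4a1 reaches further, to 11312889. Below, the windows are printed 5′ to 3′ on each gene's own strand, with those of Col11a1 (chr3:114030290-114030589, plus strand) and Col6a1 (chr10:76725995-76726294, minus strand). These 4 are shown because Col4a1, Col11a1 and Col4a2 had the 3 largest rises and Col6a1 the largest fall among tested collagen genes when Egr1 was added to culture. Capitals mark matches to an Egr1 motif (GCGNGGGCG), a GC box (GGGCGG) or a CCAAT box (CCAAT) on either strand; overlapping matches run together.
Col4a1: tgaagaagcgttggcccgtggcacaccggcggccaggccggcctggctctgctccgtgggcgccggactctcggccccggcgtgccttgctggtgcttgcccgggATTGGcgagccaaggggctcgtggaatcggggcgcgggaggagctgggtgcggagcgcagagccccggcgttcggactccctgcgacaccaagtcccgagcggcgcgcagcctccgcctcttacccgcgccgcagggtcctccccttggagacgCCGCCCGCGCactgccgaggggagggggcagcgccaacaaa
Col4a2: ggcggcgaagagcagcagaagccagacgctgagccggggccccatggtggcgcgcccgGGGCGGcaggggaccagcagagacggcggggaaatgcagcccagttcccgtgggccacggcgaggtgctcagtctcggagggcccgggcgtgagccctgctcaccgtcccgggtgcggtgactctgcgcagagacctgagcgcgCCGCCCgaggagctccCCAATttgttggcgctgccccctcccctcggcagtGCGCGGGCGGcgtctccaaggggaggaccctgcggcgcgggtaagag
Col11a1: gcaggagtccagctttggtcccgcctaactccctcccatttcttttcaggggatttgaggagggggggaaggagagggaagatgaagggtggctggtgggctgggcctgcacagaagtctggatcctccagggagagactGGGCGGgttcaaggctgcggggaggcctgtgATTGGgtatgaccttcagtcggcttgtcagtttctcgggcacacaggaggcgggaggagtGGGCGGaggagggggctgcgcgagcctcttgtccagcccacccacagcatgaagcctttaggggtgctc
Col6a1: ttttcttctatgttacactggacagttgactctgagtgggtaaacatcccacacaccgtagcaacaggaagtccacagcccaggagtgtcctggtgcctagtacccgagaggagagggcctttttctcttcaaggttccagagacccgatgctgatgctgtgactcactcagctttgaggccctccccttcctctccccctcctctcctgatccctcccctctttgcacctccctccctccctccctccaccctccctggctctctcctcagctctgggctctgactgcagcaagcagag

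The Egr1 motif in the Col4a1 window and that in the Col4a2 window are the same 9 bases of the overlap, chr8:11312808-11312816, read from opposite strands. It starts 10 bases after the Col4a1 start site and 3 bases after that of Col4a2 and overlaps a GC box. Col11a1 had GC boxes and a CCAAT box but no Egr1 motif in its window, and the Col6a1 window held none of the 3 motifs. Among collagen genes only Col4a1, Col4a2 and Col8a1 had the Egr1 motif in a window, 7.89% of the 38 windows against 5.55% of all 32851 windows in the table. A GC box was in 60.5% of collagen windows and 35.7% of all windows, a CCAAT box in 34.2% and 37.4%, and TATAAA in 13.2% and 13.6%. A match describes letters, not a bound site.

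One day after the last midazolam injection no collagen gene passed the test, and most lay slightly lower in MDZ P10. Of 27 tested, 20 had a log2 change below 0 and 7 above, against 44.1% and 55.9% of all genes, with a median of -0.16, where the median of all 12914 tested genes was 0.01. None was called by limma, against 0.00774% of all genes (1 gene). At an unadjusted p below 0.05 there were 11 of 27 collagen genes, against 12.2% of all genes. In 7 collagen genes every MDZ P10 library lay below every Control P10 library, against 6.61% of all genes, and in 2 every one lay above, against 12.2%.

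All 6 tested basement membrane genes had lower means in MDZ P10, with a median log2 change of -0.24. Col4a1 was at 55.9, 55.0 and 60.3 FPKM in Control P10 and at 41.4, 41.3 and 48.9 FPKM in MDZ P10. Its groups did not overlap, and the log2 change was -0.38 ± 0.077 (SE; limma adjusted p = 0.215). Col4a2 was at 34.9, 33.0 and 37.0 FPKM against 27.8, 27.2 and 32.3 FPKM, a log2 change of -0.26 (limma adjusted p = 0.286). Again each exposed library lay below each control. Col18a1, whose protein carries heparan sulfate chains and releases the fragment endostatin, was at 4.12, 5.01 and 5.15 FPKM against 3.02, 2.76 and 3.56 FPKM (log2 change -0.49, limma adjusted p = 0.215). Col4a6, a chain found with Col4a5 in a minority of basement membranes, was at 1.14 to 1.36 FPKM against 0.81 to 1.08 FPKM. Col4a5, at 7.83, 6.26 and 7.71 FPKM against 5.63, 6.63 and 6.47 FPKM, and Col15a1 overlapped between groups. Summed over the class, Control P10 held 104 to 114 FPKM and MDZ P10 80.5 to 94.3 FPKM.

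Of the 10 tested fibrillar genes 8 had lower means in MDZ P10, with a median log2 change of -0.15. The lowest were Col3a1, the homotrimer chain found beside collagen I in soft tissue, and Col1a2, the second chain type of collagen I. Col3a1 was at 8.34, 12.1 and 12.9 FPKM in Control P10 and 3.77, 3.77 and 8.14 FPKM in MDZ P10 (log2 change -1.01 ± 0.26 SE, limma adjusted p = 0.247). The third exposed library lay just under the lowest control, and the other 2 lay well below. Col1a2 was at 8.91, 12.9 and 13.3 FPKM against 5.83, 5.56 and 9.38 FPKM, with overlap between the groups. Col5a2, a chain of the collagen V that is mixed into collagen I fibrils, was at 2.86 to 3.38 FPKM against 2.13 to 2.72 FPKM (log2 change -0.31). Col11a2, the highest fibrillar gene, was at 22.7, 28.8 and 20.8 FPKM against 25.1, 23.9 and 23.2 FPKM, a log2 change of 0.01. Col5a3, another collagen V chain, was at 3.25, 5.09 and 3.43 FPKM against 5.36, 4.96 and 4.84 FPKM (log2 change 0.32).

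The 11 tested genes of the other class had a median log2 change of -0.07 and included both genes that were higher in every exposed library. Col16a1, a fibril-associated collagen with interruptions of the triple helix, was at 14.8, 13.3 and 13.0 FPKM in Control P10 and 17.5, 17.0 and 16.3 FPKM in MDZ P10 (log2 change 0.29 ± 0.063 SE, limma adjusted p = 0.215). Col9a2, a partner of Col9a3 in collagen IX, was at 9.13, 11.4 and 8.45 FPKM against 12.8, 11.9 and 11.5 FPKM (log2 change 0.30, limma adjusted p = 0.318). Col12a1, which sits on fibril surfaces, was at 3.98 to 4.53 FPKM against 2.82 to 3.77 FPKM. Without Control P10 replicate 2, Col9a2 (limma adjusted p = 0.0422) and Col5a3 were called higher. That library was the highest P10 library for Col9a3 and Col11a2 and the highest control for Col9a2. It also had the lowest relative depth of the P10 libraries, 0.571 of the deepest. Its summed oligodendrocyte lineage markers were the highest at P10, at 2346 FPKM. They were at 1191 and 1283 FPKM in Control P10 replicates 1 and 3 and at 1340 to 1720 FPKM in MDZ P10. The part of depth or of these cells in the collagen values was not tested.

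**Figure D1:**
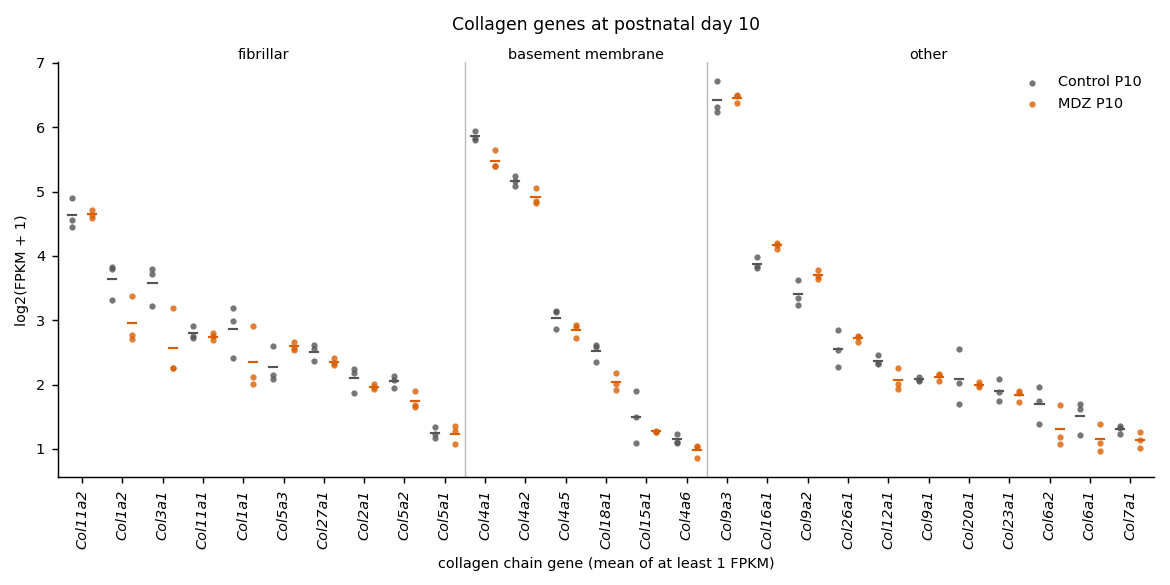
Level of each tested collagen gene at P10, as log2(FPKM + 1), with 1 point per library and a bar at the mean of each group; genes are ordered by class and mean. Every MDZ P10 point lies below every Control P10 point for Col4a1, Col4a2, Col18a1, Col4a6, Col3a1, Col5a2 and Col12a1, and above for Col16a1 and Col9a2, but none was called.

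Genes that make, bind or degrade collagen did not pass the test at P10 either. Counts called were 0 of 25 for maturation enzymes and chaperones, 0 of 13 for basement membrane partners such as laminins and nidogens, 0 of 8 for collagen receptors, 0 of 8 for fibril-associated matrix proteins and 0 of 8 for turnover genes. Their counts at an unadjusted p below 0.05 were 5, 2, 3, 3 and 4, against 12.2% of all genes. No marker of another cell type was called, and pericyte and fibroblast markers had lower means where endothelial markers did not. Of 10 pericyte and smooth muscle markers 9 had lower means in MDZ P10, with sums of 241 to 272 FPKM in Control P10 and 209 to 223 FPKM in MDZ P10. All 4 tested fibroblast markers had lower means, with sums over 8 markers of 8.34 to 10.7 against 5.30 to 7.70 FPKM. Of 10 endothelial markers 6 had higher means, with sums of 85.7 to 101 and 85.2 to 102 FPKM. The defining markers Pdgfrb (pericytes), Slc6a13 (fibroblasts) and Pecam1 (endothelium) had log2 changes of -0.26, -0.44 and 0.03. Their part in the result was not tested.

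At 8 weeks, MDZ 8w differed from Control 8w in 1 collagen gene by the test. Col9a2 was called higher and none was called lower, of 34 tested, against 4.68% of all 15264 genes called higher and 0.452% called lower. Col9a2 had a mean below 1 TPM in Control 8w and entered the test through groups where it was higher. Of the 18 collagen genes with a mean of at least 1 TPM in both groups, 0 were called. The median log2 change of collagen genes was 0.55, and 0.08 over the 25 genes not listed at 0 throughout a group, where all genes had medians of 0.36 and 0.22. With quantile normalization the collagen median turned to -0.47. No median of all genes in that fit is set beside it, so the turn is not read as particular to collagen genes. In 14 collagen genes every MDZ 8w value lay above Control 8w, against 26.2% of all genes, and in 3 every value lay below, against 10.1%. The count of 14 and the first collagen median rest partly on the 9 tested collagen genes listed at 0 in all Control 8w libraries (Col2a1, Col4a6, Col6a1, Col6a2, Col6a5, Col7a1, Col8a2, Col14a1 and Col24a1).

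Col9a2 was at 0.0538, 0 and 0 TPM in Control 8w and at 50.4, 13.6 and 31.2 TPM in MDZ 8w, a log2 change of 4.82 ± 0.67 (SE; limma adjusted p = 0.00735). The call was lost with quantile normalization (limma adjusted p = 0.132) and with library quality weights (0.391). The other collagen IX genes were less one-sided. Col9a3 was at 70.5, 51.0 and 51.0 TPM in Control 8w and 149, 82.0 and 96.4 TPM in MDZ 8w, with no overlap and no call (limma adjusted p = 0.162). Col9a1 overlapped, at 3.49, 0 and 0 TPM against 0.56 to 1.00 TPM. In the other class, Col12a1 was lower in all MDZ 8w libraries, at 10.1, 7.23 and 13.3 TPM against 19.9, 33.6 and 28.6 TPM (limma adjusted p = 0.15). Col16a1 was at 11.9, 0.355 and 0.813 TPM against 54.0, 10.4 and 15.1 TPM, so 1 exposed library overlapped with Control 8w replicate 1.

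Fibrillar genes moved in both directions without a call at 8 weeks. Col11a2 was at 29.0, 18.3 and 16.0 TPM in Control 8w and 147, 30.1 and 77.6 TPM in MDZ 8w, and Col5a3 at 5.56, 0 and 0 TPM against 26.6, 9.41 and 15.6 TPM. Both were higher in each exposed library, with limma adjusted p of 0.175 and 0.114. Col5a2 was lower in each, at 8.77, 16.6 and 17.2 TPM against 3.94, 3.86 and 3.84 TPM (limma adjusted p = 0.205). Col2a1 was listed at 0 in Control 8w and at 3.12, 2.68 and 2.01 TPM in MDZ 8w (limma adjusted p = 0.214). Col11a1 overlapped, at 18.1, 21.5 and 19.4 TPM against 33.3, 12.8 and 17.6 TPM, and so did Col27a1, at 18.5, 12.5 and 11.5 TPM against 25.8, 7.25 and 11.0 TPM. Without Control 8w replicate 1 the group is 1 sample, assumed to vary like the others, and 5 collagen genes were then called, Col5a3 among them (limma adjusted p = 0.00284).

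The basement membrane genes had no call, and their Control 8w level depended on the library. Col4a1 was at 166 TPM in replicate 1 and 32.4 and 36.2 TPM in replicates 2 and 3, beside 40.2, 36.2 and 42.4 TPM in MDZ 8w. The class sum followed it, at 238 TPM in replicate 1, 81.9 and 81.5 TPM in replicates 2 and 3, and 85.2 to 105 TPM in MDZ 8w. Col15a1, a collagen that ties basement membranes to the matrix around them, was at 0, 0.174 and 0 TPM against 5.07, 0.837 and 4.53 TPM (limma adjusted p = 0.147). Col4a5 overlapped, at 5.76, 14.1 and 12.5 TPM against 6.98, 12.3 and 9.50 TPM. Col4a6 was listed at 0 in Control 8w and at 1.13, 1.34 and 1.70 TPM in MDZ 8w. Markers of other cells differed as well, where 4.68% of all genes were called higher and 0.452% lower. Endothelial sums were 405 to 677 TPM in Control 8w and 328 to 431 TPM in MDZ 8w, with Cdh5 called lower and Tie1 called higher among 10 markers. Pericyte and smooth muscle sums were 2430 to 3830 TPM against 877 to 1450 TPM, with Vtn called lower. Fibroblast marker sums were 30.5 to 66.0 against 21.0 to 31.6 TPM, while 4 of the 5 tested had log2 changes above 0, with Dpt at 0 in both groups. Radial glia markers had 3 of 8 called higher, with sums of 2080 to 2400 against 3290 to 4930 TPM, and neuroblast markers 2 of 7 called lower, with sums of 4290 to 4410 against 2340 to 3250 TPM. Of 8 ependymal and choroid plexus markers 4 were called higher, each listed at 0 in Control 8w. Control 8w replicate 1 stood apart here too, with an ependymal and choroid plexus sum of 0.121 TPM against 4540 and 4816 TPM in replicates 2 and 3, and a microglia sum of 0.0381 TPM against 159.7 and 161.5 TPM. In MDZ 8w the ependymal and choroid plexus sums were 34.8 to 83.7 TPM and the microglia sums 35.9 to 142 TPM. Oligodendrocyte lineage sums were 2940, 879 and 865 TPM in Control 8w replicates 1 to 3. In MDZ 8w replicates 1 to 3 they were 4275, 1246 and 1674 TPM. Of these 7 markers 6 had log2 changes above 0 and none was called. The part of any of these cell types in the collagen values was not tested.

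Among genes that act on collagen, the 2 procollagen C-proteinase enhancers were called higher in MDZ 8w, of 29 maturation genes tested, a share near the 4.68% of all genes called higher. Pcolce rose by 3.55 on the log2 scale (limma adjusted p = 0.00908), from near 0 in Control 8w. Pcolce2 was listed at 0 there, with a mean of 5.83 TPM in MDZ 8w (limma adjusted p = 0.038). Of 12 fibril-associated genes, Bgn, the small proteoglycan biglycan, fell by 1.75 on the log2 scale (limma adjusted p = 0.0111). None of 14 basement membrane partners, 8 receptors or 10 turnover genes was called by limma. At an unadjusted p below 0.05 there were 1, 0 and 1, against 3476 of all 15264 genes.

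Among exposed mice, most collagen genes had higher means with a running wheel, but none passed the test at one shared spread. RUN MDZ 8w shares the MDZ 8w libraries with the comparison above. Of 34 collagen genes 29 had a log2 change above 0 and 5 below, against 54.0% and 46.0% of all genes, with a median of 0.82, where the median of all genes was 0.05. The medians were 0.72 for basement membrane genes (7 tested), 0.42 for fibrillar genes (11 tested) and 1.07 for the others (16 tested). None was called by limma, against 0.157% of all genes. At an unadjusted p below 0.05 there were 9 of 34, against 9.98% of all genes. In 14 collagen genes every RUN MDZ 8w library lay above every MDZ 8w library, against 14.4% of all genes, and in none did every one lie below, against 10.5%. Of the 34 genes, 26 had a mean of at least 1 TPM in both groups. The other 8 had a mean below 1 TPM in MDZ 8w and entered the test through groups where they were higher. Col1a1, Col6a2, Col6a5, Col9a1 and Col14a1 are among both these 8 and the 14. Nothing is therefore read from these counts and medians beside the values of all genes.

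Both chains of the main collagen IV trimer were higher in every running library. Col4a2 was at 27.1, 23.8 and 37.4 TPM in MDZ 8w and 73.4, 66.4 and 111 TPM in RUN MDZ 8w, a log2 change of 1.46 ± 0.34 (SE; limma adjusted p = 0.17). Col4a1 was at 40.2, 36.2 and 42.4 TPM against 133, 71.0 and 136 TPM, a log2 change of 1.44 ± 0.54 (SE; limma adjusted p = 0.428). The SE of Col4a1 is pooled with Control 8w, where replicate 1 stood apart at 166 TPM. Col4a1 and Col4a2 were each called in 3 of 19 alternatives, with limma adjusted p as high as 0.973 and 0.566 in the rest. In a fit on the MDZ 8w and RUN MDZ 8w groups only, both were called (limma adjusted p = 0.0333 for Col4a1 and 0.0317 for Col4a2), and with library quality weights too (0.0159 and 0.024). Without Control 8w replicate 1 the values were 0.0412 and 0.0407. Col4a6 was at 1.13 to 1.70 against 1.74 to 5.25 TPM. Col4a5, Col18a1 and Col15a1 overlapped between the groups, with log2 changes of -0.15, 0.20 and -0.65.

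The largest differences with running among tested collagen genes were in chains of collagens I, VI and VIII. Col1a1, Col6a5 and Col6a2 had means below 1 TPM in MDZ 8w and entered the test through groups where they were higher. Their place in this ranking therefore rests partly on the filter. Col1a1 was at 1.05, 0.124 and 1.58 TPM in MDZ 8w and 8.57, 5.13 and 5.08 TPM in RUN MDZ 8w (log2 change 1.97, limma adjusted p = 0.234). Col1a2 was at 3.61, 5.04 and 10.2 TPM against 19.5, 25.2 and 35.2 TPM (log2 change 1.99, limma adjusted p = 0.328). Both chains of collagen I were thus higher in each running library, while Col3a1 overlapped, at 3.73 to 4.20 TPM against 22.5, 4.07 and 35.4 TPM. Col6a5, a long alternative chain of collagen VI, was at 0.566, 0 and 0 TPM against 4.33, 10.6 and 15.3 TPM (log2 change 3.11 ± 0.58 SE, limma adjusted p = 0.117). Col8a2, a network collagen known from the cornea, was at 2.15, 1.12 and 0.972 TPM against 6.41, 38.4 and 16.5 TPM (log2 change 2.87, limma adjusted p = 0.181). Col6a2 was at 0.78, 0.26 and 1.25 TPM against 2.85, 9.08 and 3.74 TPM. Col20a1, at 8.31, 3.88 and 3.95 TPM against 17.1, 14.5 and 10.5 TPM, and Col12a1, at 10.1, 7.23 and 13.3 TPM against 19.9, 20.6 and 23.3 TPM, were also higher in every running library (log2 changes 1.28 and 1.02). Col6a5 was called with library quality weights (limma adjusted p = 0.0307) and in the fit on the pair of groups (0.047), and Col8a2 with quality weights (0.0465). In all, Col6a5 was called in 3 of 18 alternatives and Col8a2 in 1 of 19, with limma adjusted p as high as 0.407 and 0.573.

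**Figure D2:**
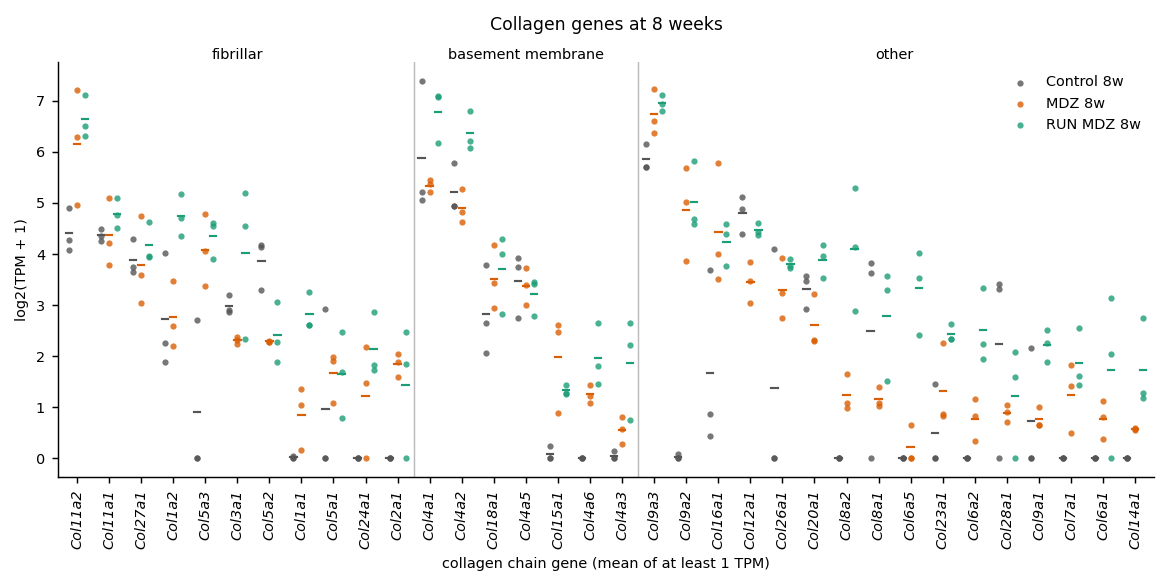
Level of each tested collagen gene at 8 weeks, as log2(TPM + 1), with 1 point per library and a bar at the mean of the points of each group; Control 8w replicates 2 and 3 are drawn as separate points here. Points at 0 are values listed at 0, and the high Control 8w point for Col4a1 is replicate 1 at 166 TPM.

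Of the markers of other cell types, 4 vascular genes were called, all higher in RUN MDZ 8w. Over all 15264 genes tested, 8 were called higher and 16 lower, and 9.98% had an unadjusted p below 0.05. All 10 endothelial markers had higher means and 3 were called (Flt1, Cldn5 and Cdh5), with sums of 328 to 431 TPM in MDZ 8w and 862 to 1160 TPM in RUN MDZ 8w. All 10 pericyte and smooth muscle markers had higher means and Acta2 was called, with sums of 877 to 1450 against 2390 to 3490 TPM. The 5 tested fibroblast markers had higher means, with sums of 21.0 to 31.6 against 53.0 to 95.2 TPM, and the defining marker Dpt was at 0 in every library. Ependymal and choroid plexus sums were 34.8 to 83.7 TPM in MDZ 8w and 281, 4107 and 499 TPM in RUN MDZ 8w replicates 1 to 3. Oligodendrocyte lineage sums overlapped, at 1250 to 4270 against 4170 to 6240 TPM. All 8 and all 7 of those markers had higher means, with none called by limma (5 and 2 at an unadjusted p below 0.05). All 6 microglia markers had lower means, with sums of 35.9 to 142 against 12.5 to 53.9 TPM and none called (0 at an unadjusted p below 0.05). The part of these cells in the collagen values was not tested. Of genes that act on collagen, none was called by limma among 29 maturation, 14 partner, 8 receptor, 12 fibril-associated and 10 turnover genes, with 3, 5, 1, 4 and 1 at an unadjusted p below 0.05.

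Set against Control 8w, RUN MDZ 8w had 5 collagen genes called higher and none lower of 34, where 9.41% of all genes were called higher and 1.9% lower. This comparison shares its groups with both others at 8 weeks. The 5 were Col9a2, Col8a2, Col6a5, Col1a1 and Col6a2. All 5 had a mean below 1 TPM in Control 8w and entered the test through groups where they were higher, so nothing is read from the count beside the share of all genes. Col8a2, Col6a5 and Col6a2 were listed at 0 in every Control 8w library (limma adjusted p = 0.0155, 0.0186 and 0.043), and their running values are given above. The Col6a2 call was lost in 10 of 18 alternatives, among them the fits without Control 8w replicate 1, without any 1 of the MDZ 8w libraries, or without RUN MDZ 8w replicate 2 or 3 (limma adjusted p = 0.0503 to 0.0927). The Col1a1 call was lost without MDZ 8w replicate 1 (0.0627). Col1a1 was at 0.0314, 0 and 0 TPM in Control 8w (limma adjusted p = 0.0261), and Col9a2 was at 55.3, 23.0 and 24.7 TPM in RUN MDZ 8w (0.00488). The median log2 change was 1.57, and 1.03 without the genes listed at 0, where all genes had 0.51 and 0.28. In 19 collagen genes every running value lay above Control 8w, against 23.0% of all genes, and Col5a2 lay below, against 9.47%. With quality weights or in a fit on the pair of groups no collagen gene was called. With quantile normalization none was called higher and Col5a2 was called lower. Without Control 8w replicate 1, 12 were called, and without MDZ 8w replicate 1, 3.

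Other collagen genes were higher in every RUN MDZ 8w library than in Control 8w without passing the test. Col9a3 was at 111, 138 and 122 TPM in RUN MDZ 8w and Col11a2 at 138, 78.5 and 89.7 TPM, with limma adjusted p of 0.0645 and 0.0672 against Control 8w. Col5a3 was at 23.4, 22.5 and 14.0 TPM in RUN MDZ 8w (limma adjusted p = 0.0598). Col4a2 exceeded its Control 8w values of 53.9, 29.8 and 29.7 TPM in every running library, and Col1a2 its Control 8w values of 15.3, 3.78 and 2.71 TPM (0.134 and 0.174). Low genes followed. Col4a3, a chain of the kidney type of collagen IV, was at 0, 0.107 and 0 TPM in Control 8w and 0.675, 3.64 and 5.26 TPM in RUN MDZ 8w, and Col23a1, a membrane-spanning collagen, at 1.75, 0 and 0 TPM against 4.05, 5.16 and 4.03 TPM; with quantile normalization both log2 changes turned below 0 (-0.08 and -0.14). Col7a1, the anchoring fibril collagen of skin, Col14a1, which binds fibril surfaces, and the fibrillar gene Col24a1 were listed at 0 in Control 8w. In RUN MDZ 8w they were at 1.71 to 4.86, 1.26 to 5.73 and 2.33 to 6.26 TPM. None of these passed the test, although each had an unadjusted p below 0.05.

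Of genes that act on collagen, the enhancers were again called. Of 29 maturation genes 7 were called higher in RUN MDZ 8w and none lower, against 9.41% and 1.9% of all genes, with Pcolce, Pcolce2, Lox and Colgalt2 at the lowest p. Lox, which crosslinks collagen, Colgalt2, which adds galactose to hydroxylysine, and Pcolce2 were listed at 0 in Control 8w. Pcolce, the enhancer named above, rose by 4.86 on the log2 scale (limma adjusted p = 0.00265). Lamb2, a laminin chain of vessel basement membranes, rose by 1.11 (0.0273), and Fn1, fibronectin, by 1.89 (0.0471). Endothelial markers had 6 of 10 called higher, and 1 pericyte and smooth muscle marker (Acta2) and 1 fibroblast marker (Ogn, listed at 0 in Control 8w) were called higher. Called higher too were 4 of 8 ependymal and choroid plexus markers (all 4 listed at 0 in Control 8w), 3 of 7 oligodendrocyte lineage markers (sums of 865 to 2940 against 4170 to 6240 TPM) and 2 of 8 radial glia markers. Neuroblast markers had 4 of 7 called lower. Over all genes the shares are the 9.41% and 1.9% given above. Their part in the collagen values was not tested.

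**Figure D3:**
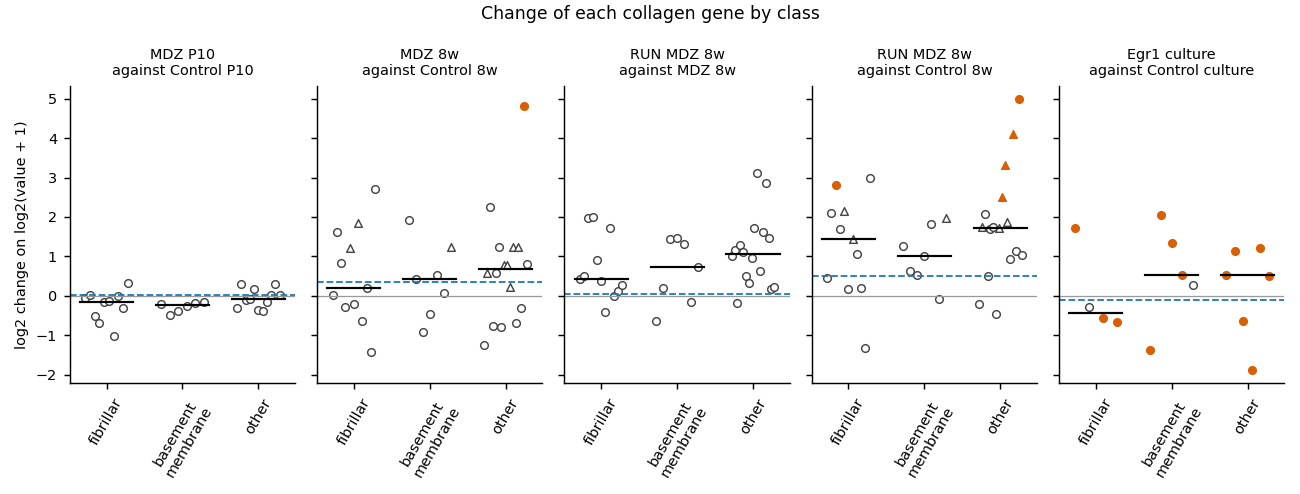
Change of each tested collagen gene in each comparison, by class, as the difference of mean log2(value + 1); filled points were called, triangles mark genes listed at 0 in a whole group, black bars are class medians and the dashed line is the median of all genes tested. Most points at P10 lie near 0, while Col3a1 is at -1.01. Points of RUN MDZ 8w lie mostly above the dashed line, and those of Egr1 culture on both sides.

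In cultured neural stem cells, added Egr1 went with changes in most tested collagen genes, in both directions. Egr1 itself had a mean of 1483 TPM in Egr1 culture and 329.9 TPM in Control culture (log2 change 2.16, limma adjusted p = 4.02e-06), and whether reads came from the virus or the cell's own gene was not separated. Of 15 collagen genes tested 8 were called higher and 5 lower, against 15.2% and 29.0% of all 12402 genes. The median log2 change was 0.50, and -0.10 over all genes. All 13 called genes had groups that did not overlap, 8 higher and 5 lower, against 18.4% and 37.1% of all genes. Of the called genes, Col11a1, Col9a2, Col12a1, Col5a2 and Col5a3 had a mean below 1 TPM in one group and entered the test through the group where they were higher, so nothing is read from these counts beside the shares of all genes. Of the 10 genes with a mean of at least 1 TPM in both groups, 5 were called higher and 3 lower. The share of all genes under that condition was not computed, so nothing is read from this count either.

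The class with the highest levels, basement membrane collagens, held the largest rise and the second largest fall. Col4a1 was at 5.83, 5.16 and 6.81 TPM in Control culture and 32.3, 28.1 and 23.2 TPM in Egr1 culture, a log2 change of 2.05 ± 0.14 (SE; limma adjusted p = 8.85e-06). Col4a2 was at 2.75, 2.63 and 2.74 TPM against 9.49, 8.80 and 6.85 TPM, a log2 change of 1.33 ± 0.13 (SE; limma adjusted p = 8.79e-05). These are the genes whose printed windows share the Egr1 motif, a match of letters whose part in the rises was not tested. Col4a5, Col9a2, Col11a1 and Col16a1, also called higher, had no such motif in their windows. Col4a5 rose from 36.9, 31.0 and 36.7 TPM to 54.7, 51.3 and 45.4 TPM (log2 change 0.52, limma adjusted p = 0.00252), and its neighbour Col4a6 overlapped, at 3.14 to 4.02 against 3.88 to 5.27 TPM (log2 change 0.27, limma adjusted p = 0.143). Col18a1 fell from 16.5, 12.3 and 14.9 TPM to 4.57, 5.83 and 4.64 TPM (log2 change -1.37 ± 0.13 SE, limma adjusted p = 8.05e-05). The class sum was 54.2 to 66.0 TPM in Control culture and 84.7 to 107 TPM in Egr1 culture.

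Of 4 tested fibrillar genes 1 rose and 2 fell. Col11a1, a chain that sits inside fibrils and limits their width, was at 0.134, 0.259 and 0.254 TPM in Control culture and 3.87, 2.67 and 2.61 TPM in Egr1 culture (log2 change 1.72 ± 0.17 SE, limma adjusted p = 7.23e-05). Col5a3 fell from 1.55, 1.53 and 1.90 TPM to 0.74, 0.59 and 0.724 TPM (log2 change -0.66, limma adjusted p = 0.00582). Col5a2 fell from 1.65, 1.31 and 2.02 TPM to 0.64, 0.839 and 0.898 TPM (limma adjusted p = 0.0188), a call lost without Control culture replicate 3 (0.069) or Egr1 culture replicate 1 (0.0527). Col5a1, with the highest fibrillar level, overlapped, at 7.46, 4.85 and 7.19 TPM against 5.84, 5.47 and 3.99 TPM (limma adjusted p = 0.217). The collagen V chains were thus lower or overlapping while Col11a1, which can join trimers with them, was higher.

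All 6 tested genes of the other class were called, 4 higher and 2 lower. Col6a1, an obligate chain of collagen VI, had the largest fall, from 13.4, 8.83 and 13.0 TPM to 2.60, 2.44 and 2.20 TPM (log2 change -1.88 ± 0.16 SE, limma adjusted p = 3.26e-05). Its partner Col6a2 was under the mean filter and not tested, at 1.35 to 1.74 TPM in Control culture and 0.17 to 0.388 TPM in Egr1 culture, with no overlap. Both collagen IX genes tested rose. Col9a2 was at 0.0934, 0.336 and 0.403 TPM against 1.96, 2.16 and 1.72 TPM (log2 change 1.21, limma adjusted p = 0.000442), and Col9a3 at 10.2, 10.7 and 10.1 TPM against 14.9, 15.4 and 14.7 TPM (log2 change 0.50, limma adjusted p = 0.0014). Col16a1 rose from 4.27, 2.76 and 3.59 TPM to 8.97, 9.25 and 8.22 TPM (log2 change 1.13, limma adjusted p = 0.000298). Col12a1 rose from 0.846, 0.869 and 1.15 TPM to 1.92, 2.09 and 1.49 TPM (limma adjusted p = 0.0197). Col28a1, a collagen related to collagen VI, fell from 2.12, 1.48 and 3.09 TPM to 1.39, 1.22 and 0.601 TPM (limma adjusted p = 0.0466). That call was lost in 9 of 13 alternatives, leaving out Control culture replicate 1 or 3 or Egr1 culture replicate 2 or 3 among them. The Col12a1 call was lost without Control culture replicate 1 or 2 or Egr1 culture replicate 1 or 2 (limma adjusted p = 0.0513 to 0.0674).

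**Figure D4:**
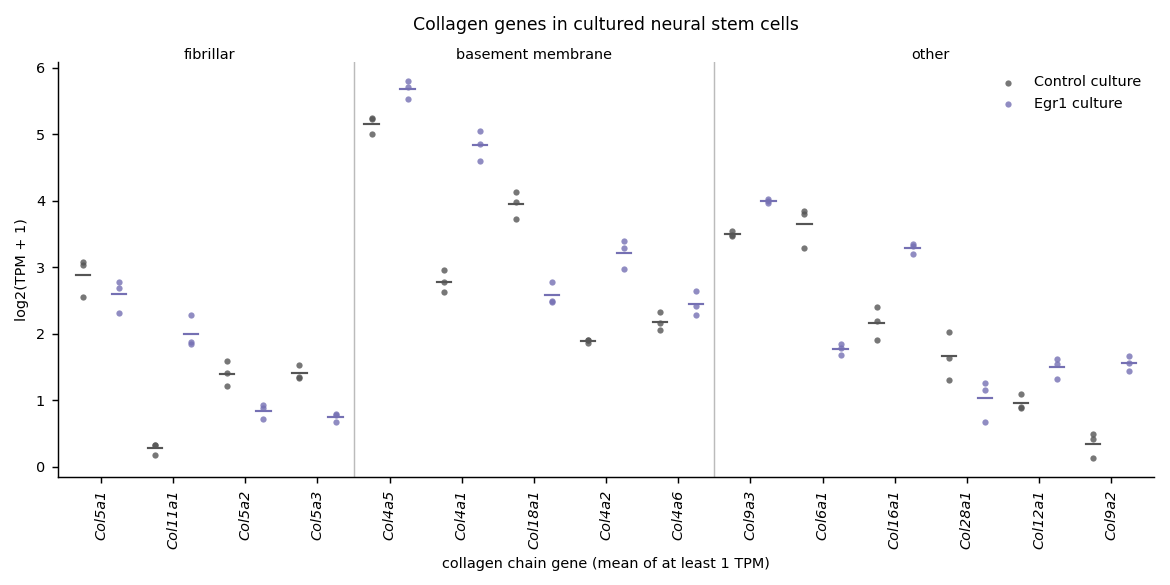
Level of each tested collagen gene in culture, as log2(TPM + 1), with 1 point per library and a bar at the mean of each group. Groups are apart for 13 of the 15 genes, with Col4a1, Col4a2 and Col11a1 higher and Col6a1 and Col18a1 lower in Egr1 culture, and they overlap for Col4a6 and Col5a1.

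Col4a1 rose more than Col4a2 in Egr1 culture although the start sites used for their windows lie 21 bases apart. The ratio of their TPM was 2.12, 1.96 and 2.49 in Control culture and 3.40, 3.19 and 3.38 in Egr1 culture, with no overlap. The mean log2 ratio was 1.12 and 1.73 (two-sided exact permutation p = 0.1, the smallest that 3 libraries against 3 allow). At P10 the ratio of FPKM was 1.61 to 1.67 in Control P10 and 1.49 to 1.52 in MDZ P10, again without overlap (exact permutation p = 0.1). At 8 weeks it was 3.08 in Control 8w replicate 1 and 1.07 to 1.82 in all other libraries, and the mean log2 ratios of RUN MDZ 8w and MDZ 8w, 0.42 and 0.45, gave an exact permutation p of 0.9. Adjusted over the 5 comparisons of the ratio, the exact permutation p of culture and of P10 was 0.25, and no comparison could fall below 0.05.

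**Figure D5:**
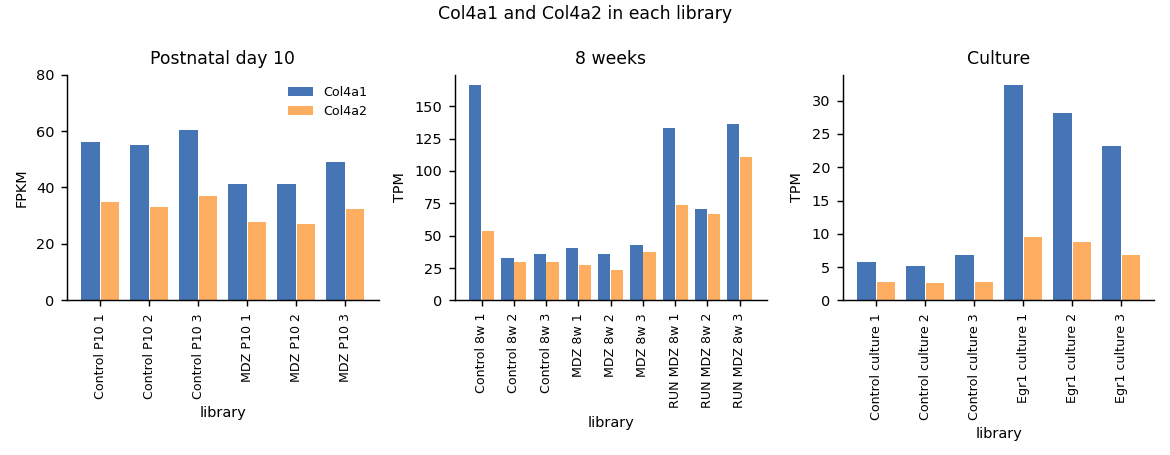
Level of Col4a1 (blue) and Col4a2 (orange) in each library, in FPKM at P10 and in TPM at 8 weeks and in culture, with bars from 0 and a separate scale for each table. Both bars of the pair are higher in all Egr1 culture and RUN MDZ 8w libraries than in Control culture and MDZ 8w, and Control 8w replicate 1 stands apart for Col4a1.

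Most tested genes that modify collagen chains were called lower in Egr1 culture. Of 23 tested maturation genes 2 were called higher and 16 lower, against 15.2% and 29.0% of all genes, the shares against which the counts of the lists that follow are also to be read. Plod1, a lysyl hydroxylase, fell by 0.98 on the log2 scale (limma adjusted p = 9.11e-05), Pcolce by 0.95 (0.00033), Ppib, a prolyl isomerase of the endoplasmic reticulum, by 0.42 (0.000343), and Creb3l1, a transcription factor of collagen genes, by 1.30 (0.000437). Of 11 basement membrane partners 3 were called higher and 5 lower. Nid1, nidogen, which links laminin to collagen IV, rose from a mean of 1.18 TPM to 26.4 TPM (log2 change 3.63, limma adjusted p = 6.08e-07), and Lamb3 rose by 0.77 (0.00217). Sparc, a collagen IV binding protein, and Lamc1, the common laminin gamma chain, each fell by 0.61 (0.000515 and 0.00553).

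Of 6 collagen receptors 1 rose and 4 fell, with Itga1, the integrin chain that prefers collagen IV, at a log2 change of -1.13 (limma adjusted p = 0.000164). Of 6 fibril-associated genes 3 rose and 2 fell. Dcn, decorin, a proteoglycan that binds collagen I fibrils, rose from a mean of 0.129 TPM to 145 TPM (log2 change 7.01, limma adjusted p = 9.66e-09). Of 8 turnover genes 4 rose and 2 fell, with the gelatinases Mmp2 and Mmp9, which cut collagen IV, at log2 changes of 1.46 and 1.34 (limma adjusted p = 9.59e-05 and 0.000172). Neuroblast marker sums were 35.4 to 42.0 TPM in Control culture and 169 to 207 TPM in Egr1 culture, with 1 of 4 called higher. Oligodendrocyte lineage sums were 1570 to 1670 against 800 to 929 TPM, with 3 of 6 called higher and 3 lower, and radial glia sums 5640 to 6100 against 4980 to 5230 TPM, with 3 of 8 higher and 4 lower. Vascular and fibroblast markers were low in culture. Endothelial sums were 8.11 to 10.1 TPM in Control culture and 1.69 to 4.06 TPM in Egr1 culture, with Cldn5 at 0. Pericyte and smooth muscle sums were 7.31 to 9.99 against 17.0 to 26.8 TPM, with 2 of 4 tested called higher, 1 lower and Vtn at 0, and fibroblast sums were 21.1 to 27.3 against 21.3 to 27.0 TPM, with Dpt at 0. Their part in the collagen values was not tested.

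The 29 collagen genes not tested in culture had values of at most 1.74 TPM, and 3 of them were listed at 0 in every library. Some low genes had groups that did not overlap. Col15a1 was at 0, 0 and 0.0501 TPM in Control culture and 0.997, 1.26 and 0.675 TPM in Egr1 culture. Col1a1 was at 0.0855 to 0.244 against 0.512 to 1.19 TPM, and Col23a1 at 0.174 to 0.188 against 0.801 to 0.92 TPM. Col2a1, the cartilage collagen, was at 0.0258 to 0.0722 against 0.437 to 1.00 TPM. These genes were named for their values. At P10 the 17 untested collagen genes reached at most 1.37 FPKM (Col8a2 in Control P10 replicate 3), and at 8 weeks the 10 untested ones reached 4.46 TPM (Col13a1 in RUN MDZ 8w replicate 3).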

How the data were processed

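Of 31 listed samples, 21 RNA libraries were used; the 10 samples for ATAC or chromatin immunoprecipitation are not analysed here. The deposited values were read as FPKM for P10 and as TPM for 8 weeks and culture. No label states these units: the 8-week and culture libraries each sum to 1000000 and the P10 libraries do not. Per the submitters' processing notes, mm10, TopHat, Bowtie2 and DESeq2 were involved, with no role given. The sources used here do not give the quantification program, annotation or strand setting, so chains that overlap other genes are uncertain. The culture tables use another annotation, and older symbols were matched to newer ones.

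From these values, limma 3.58.1 in R 4.3.3 was fitted on log2(value + 1), with a trend, to genes whose mean reached 1, and p-values were adjusted by Benjamini-Hochberg over all genes. The 8-week groups shared one estimate of the spread, with the mean of Control 8w replicates 2 and 3 as 1 sample. Steps were tested on simulated data. Read depth is unknown at 8 weeks. From steps in low values, relative depth was 0.571 to 1 at P10 and 0.899 to 1 in culture. The number of libraries sets the precision. Alternatives were other pseudocounts, filters, scalings, weights, blocks, groups in the fit and each library left out.

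Collagen genes with a mean of at least 1 could be named. Values per library are given for those called in a comparison, those with an unadjusted p below 0.05 and no overlap, and the 3 with the highest means in a class. From each companion list, called genes were named by lowest p, up to 4, with Pdgfrb, Pecam1, Cdh5, Dpt, Slc6a13 and Acta2 as defining markers. Untested collagen genes were named by value. The members and lists were chosen with earlier results of these data known. Motifs were searched by letters in RefSeq promoter windows.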

Additional observations from a re-analysis of the deposited data

Results flagged for a closer look

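Col4a6 stood out because its values in the exposed libraries lay below all controls at one age and above them at the other, although the 8-week side rests on values listed at 0 in Control 8w, which may be failed estimates. At P10 the MDZ P10 mean minus the Control P10 mean was -0.241 FPKM (0.978 and 1.22 FPKM), with every exposed library below every control. At 8 weeks MDZ 8w was 1.39 TPM above Control 8w, where Col4a6 was listed at 0 in all libraries. Neither comparison was called, and the difference between ages was not tested, since the tables were normalized separately.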

How the results depend on the processing

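For MDZ 8w against Control 8w, where 1 collagen gene was called, 3 were called with a pseudocount of 0.1, 0 with quantile normalization, 0 with library quality weights, 4 with Control 8w replicates 2 and 3 kept apart, and 2 in a fit on the pair of groups. With quantile normalization the median log2 change of collagen genes turned to -0.47, with no median of all genes in that fit set beside it. For RUN MDZ 8w against MDZ 8w, where 0 were called, 4 were called with quality weights, 1 with those replicates kept apart and 3 in a fit on the pair of groups. For RUN MDZ 8w against Control 8w, where 5 were called, 8 were called with a pseudocount of 0.1, 2 with a minimum mean of 5, 1 with quantile normalization, 0 with quality weights, 14 with the replicates kept apart and 0 in a fit on the pair of groups. Quantile normalization also turned Col4a3 to -0.08 and Col23a1 to -0.14 there. In culture, where 13 were called, 20 were called with no filter on low values and 7 with a minimum mean of 5. Leaving out each library in turn gave 0 to 2 calls at P10 (2 without Control P10 replicate 2), 1 to 5 for MDZ 8w against Control 8w, 0 to 2 for RUN MDZ 8w against MDZ 8w, 3 to 12 for RUN MDZ 8w against Control 8w and 10 to 12 in culture. The highest 8-week count in each of these comparisons came without Control 8w replicate 1, and the 3 without MDZ 8w replicate 1. The fewer genes tested under a stricter filter set part of those counts; for the other settings the cause was not tested.

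Libraries with the same replicate number did not deviate together (correlations of -0.077, 0.12 and 0.106 at P10, -0.015 to 0.133 at 8 weeks and -0.052 to 0.021 in culture), so the numbers were not taken as pairs. With a replicate block, 0 collagen genes were called at P10, 12 in culture, and at 8 weeks, with Control 8w replicates 2 and 3 kept apart, 4 for MDZ 8w against Control 8w, 0 for RUN MDZ 8w against MDZ 8w and 10 for RUN MDZ 8w against Control 8w. Without read counts, values below about 1 FPKM or TPM carry no interval.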
